A study of Mus musculus with 4 samples.

Results

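Annexins and S100 proteins, 2 families of calcium-binding proteins, were followed in mouse liver through 10 genes: Anxa1, Anxa2, Anxa4, Anxa5, Anxa6, Anxa7, S100a6, S100a8, S100a9 and S100a10. Every probe set whose single gene symbol in the platform annotation was one of these was taken, which gave 14 of the 12422 non-control probe sets of the array, and 10 of its 8251 genes with such a probe set. RNA from whole livers of male mice (hybrid B6SJL, aged 58 to 60 days) was hybridised to Affymetrix MG_U74Av2 arrays, with 2 arrays from non-transgenic, wild-type mice and 2 from PEPCK-TAg transgenic mice, and all mice ate freely, in the 4 weeks that followed weaning, of food with 10% protein and 70% carbohydrate. The transgene, driven by regulatory sequence of Pck1, the phosphoenolpyruvate carboxykinase gene, encodes the SV40 large T and small t oncoproteins, and the series asks how chronic exposure to low levels of them alters hepatic gene expression. Pck1 is active in hepatocytes, and the transgene's own RNA was not measured here. The labels speak of duplicate measurements and do not say whether each array came from 1 animal or a pool, so the p-values rest on array-to-array spread alone, and that spread may be technical.

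Annexins share a core of repeated domains that binds acidic phospholipids when calcium is present, and they take part in membrane traffic, membrane repair and the scaffolding of actin at the plasma membrane. S100 proteins are small dimers with a pair of EF hands, the helix-loop-helix fold that holds calcium, and they act by docking on target proteins. The families meet in the complex of annexin A2 with S100A10, which gathers plasminogen and its activator at the cell surface, and S100A10 is the S100 protein whose EF hands no longer bind calcium. S100A8 and S100A9 form calprotectin, which is abundant in neutrophils and monocytes and which other cells can make under inflammatory signals.

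Each array had a trimmed mean signal of 250.2, arrays of a group correlated at 0.965 and 0.966 across tested probe sets, and arrays of different groups at 0.896 to 0.914, where probe sets are not independent replicates. All 13 hepatocyte markers on the array passed the filter described next, among them Alb, the serum albumin gene, at 16723 and 14430 in wild type against 13339 and 12446 in PEPCK-TAg. Signals are MAS5 values on a linear scale, changes are differences of log2(signal + 13), which understate the change of dim genes, and the threshold throughout was a limma Benjamini-Hochberg adjusted p under 0.05. Of 7453 probe sets kept by a filter on low mean signal, 477 (6.4%) were called higher in PEPCK-TAg and 229 (3.07%) lower. When arrays were centred on their medians, which moved the median change of all probe sets from 0.0074 to -0.14, 403 were called higher and 409 lower.

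The 3 annexin genes that passed the threshold and the neighbouring genes S100a8 and S100a9 carry most of the results, so the 250 bases before their annotated start are shown here, 5′ to 3′, from the RefSeq promoter table. For Anxa4 the farther upstream of its 2 listed starts is shown. Capitals mark matches, on either strand, to 5 motifs that were chosen after the sequences had been seen.
Anxa2 (GRCm38.p6, chr9:69453433-69453682, + strand): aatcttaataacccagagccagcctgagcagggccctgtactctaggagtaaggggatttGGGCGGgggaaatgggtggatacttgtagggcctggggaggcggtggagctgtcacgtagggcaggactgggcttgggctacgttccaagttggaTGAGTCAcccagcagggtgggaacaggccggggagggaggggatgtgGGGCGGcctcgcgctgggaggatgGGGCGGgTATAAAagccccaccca
Anxa4 (GRCm38.p6, chr6:86793585-86793834, - strand): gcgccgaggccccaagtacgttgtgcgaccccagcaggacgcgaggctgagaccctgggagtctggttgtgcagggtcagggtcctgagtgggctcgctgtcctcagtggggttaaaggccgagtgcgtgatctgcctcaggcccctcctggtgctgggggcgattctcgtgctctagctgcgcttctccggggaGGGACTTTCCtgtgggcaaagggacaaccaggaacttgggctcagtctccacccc
Anxa5 (GRCm38.p6, chr3:36475888-36476137, - strand): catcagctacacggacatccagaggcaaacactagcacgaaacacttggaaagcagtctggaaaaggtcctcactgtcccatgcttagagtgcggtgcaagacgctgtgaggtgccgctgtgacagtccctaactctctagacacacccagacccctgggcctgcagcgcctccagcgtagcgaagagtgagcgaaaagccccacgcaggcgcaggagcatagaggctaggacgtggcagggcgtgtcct
S100a8 (GRCm38.p6, chr3:90668821-90669070, + strand): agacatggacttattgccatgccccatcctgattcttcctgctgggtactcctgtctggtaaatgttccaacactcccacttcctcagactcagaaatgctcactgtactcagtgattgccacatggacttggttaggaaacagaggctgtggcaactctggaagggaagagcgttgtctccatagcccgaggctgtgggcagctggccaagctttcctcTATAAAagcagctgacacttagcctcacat
S100a9 (GRCm38.p6, chr3:90695722-90695971, - strand): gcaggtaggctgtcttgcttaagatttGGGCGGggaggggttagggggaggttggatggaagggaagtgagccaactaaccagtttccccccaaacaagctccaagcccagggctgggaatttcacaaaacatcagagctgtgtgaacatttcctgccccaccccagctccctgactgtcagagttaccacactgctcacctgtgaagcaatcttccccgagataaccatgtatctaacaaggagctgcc

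The motifs searched were the AP-1 site TGANTCA, the TATA box TATAAA, the GC box GGGCGG, the STAT site TTCNNNGAA and the NF-kB site (GGGA, any base, then TTTCC), and no match overlapped another in the windows shown. Promoters were found for 8 of the 10 genes. The Anxa2 window held 1 AP-1 match, TGAGTCA, at 95 to 89 bases before the start, together with 3 GC boxes and a TATA box at 17 to 12 bases before it. An AP-1 match stood in 6.75% of all 32851 promoter windows of this length, a TATA box in 12.4% and a GC box in 32.7%. Anxa4 held GGGACTTTCC, the NF-kB motif, at 55 to 46 bases before its start, a match found in 0.356% of windows. S100a8 held a TATA box at 30 to 25 bases before its start, and S100a9 held 1 GC box. None of the 5 motifs lay in the Anxa5 window, and the STAT motif, present in 7.02% of all windows, lay in that of none of the 8 genes. These matches describe letters in a window and are not binding measurements.

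Of the 14 probe sets, 9 passed the filter and were tested. Of the 9, 3 were called higher by limma, 1 each for Anxa2, Anxa5 and Anxa4. None of the 9 was called lower, with 0 lower at an unadjusted p under 0.05 by limma. Over all tested probe sets 9.47% were called in either direction and 6.4% higher. In 11 of the 14 the groups lay apart, with PEPCK-TAg higher, where this held for 30.2% of tested probe sets and 26.5% of the 12422 without the filter. The 9 that passed the filter covered 7 genes. S100a6, S100a8, S100a9 and 1 further probe set each of Anxa1 and Anxa7 fell below it, and 1 that passed, Anxa1 161703_f_at, did so only through its PEPCK-TAg arrays. Without the filter the median change of the 14 was 0.76 and that of all 12422 was 0.0053. The plot of signals shows all 14.

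**Figure D1:**
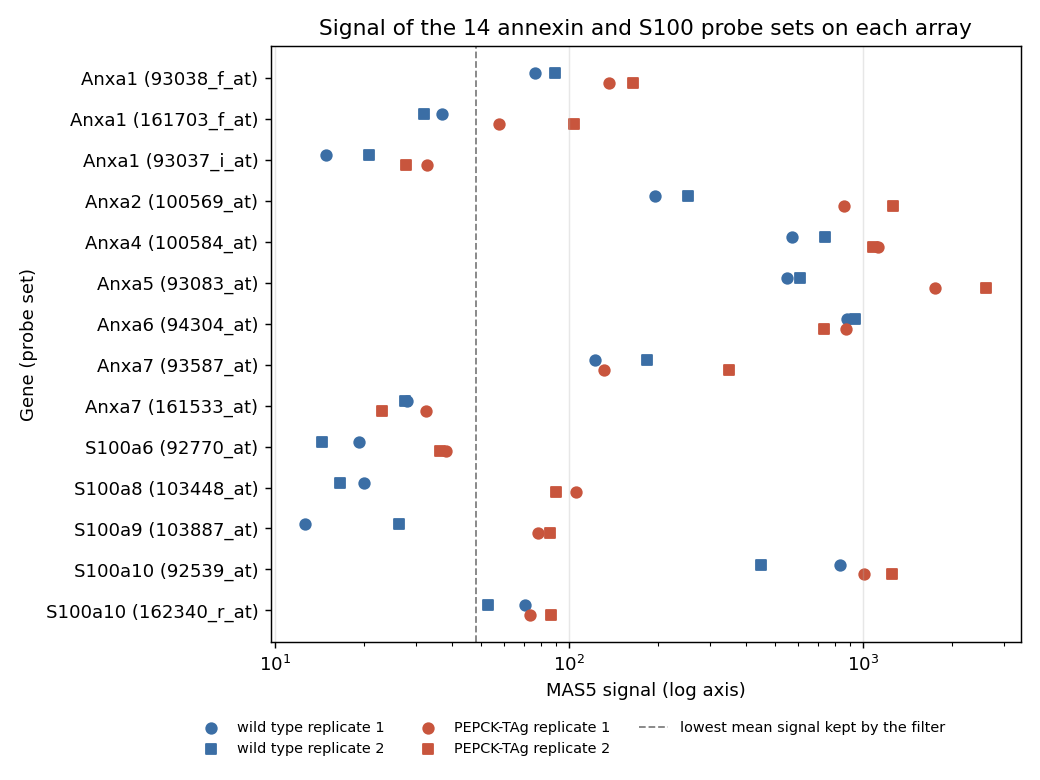
MAS5 signal (log axis) of each annexin and S100 probe set on the 2 wild-type arrays (blue) and 2 PEPCK-TAg arrays (red), with circles for replicate 1, squares for replicate 2 and a dashed line at the lowest mean signal kept by the filter, 48.1. The groups lie apart upward in 11 of 14 rows, most widely for Anxa2, Anxa5, S100a8 and S100a9, and Anxa6 is the row in which both PEPCK-TAg arrays lie below both wild-type arrays.

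Anxa2 rose most among the tested annexins. It encodes annexin A2, the partner of S100A10, which also binds actin filaments and is low in resting hepatocytes. Its wild-type signals in probe set 100569_at were 195.3 and 253.7 and its PEPCK-TAg signals 861.7 and 1260.5, so the lowest transgenic array lay well above the highest wild-type array. The change was 2.16 ± 0.24 (SE) on the log2 scale, with a 95% interval of 1.60 to 2.73 (limma, Benjamini-Hochberg adjusted p = 0.00421), or 4.73-fold in mean signal. It stayed called in all 13 alternative settings, with changes of 1.89 to 2.43 when 1 array was left out.

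Anxa5 rose nearly as far. Annexin A5 binds phosphatidylserine with high affinity, which is why the protein is used to stain dying cells, and it can coat membranes against clotting factors. Its signal in probe set 93083_at was 551.3 and 607.5 in wild type against 1756.0 and 2624.2 in PEPCK-TAg. The wild-type arrays were close together, and the transgenic arrays differed from each other by 0.58 on the log2 scale, still far less than the step between groups. The change was 1.87 ± 0.22 (SE), with an interval of 1.35 to 2.39 (limma, Benjamini-Hochberg adjusted p = 0.00509), and it stayed called in all 13 alternatives.

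Anxa4 rose by a smaller step. Annexin A4 is an epithelial annexin that is prominent in bile duct and other secretory cells, where it lies along apical membranes. Its signal in probe set 100584_at was 573.4 and 739.0 in wild type against 1124.4 and 1076.4 in PEPCK-TAg, so the groups were apart while the wild-type arrays differed from each other by 0.36 on the log2 scale. The change was 0.75 ± 0.18 (SE), with an interval of 0.32 to 1.17 (limma, Benjamini-Hochberg adjusted p = 0.0487), just inside the threshold. This call was lost in 8 of 13 alternatives, with adjusted p up to 0.154 by limma, among them the fits without wild-type replicate 1 (0.154), PEPCK-TAg replicate 1 (0.141) and PEPCK-TAg replicate 2 (0.112), and the direction held in every one of the 13.

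Anxa1 was higher on both PEPCK-TAg arrays in each of its 3 probe sets, without passing the threshold in any. Annexin A1 is induced by glucocorticoids and acts on formyl peptide receptors of leukocytes to limit inflammation. Probe set 93038_f_at measured 76.5 and 89.3 in wild type against 136.4 and 165.1 in PEPCK-TAg, a change of 0.77 ± 0.21 (limma, Benjamini-Hochberg adjusted p = 0.0710). The second, 161703_f_at, measured 36.8 and 32.1 against 57.6 and 103.6, a change of 0.94 ± 0.33 (limma, adjusted p = 0.139), and here the transgenic arrays were far from each other. The third, 93037_i_at, stayed below the filter at 14.8 and 20.8 against 32.8 and 27.9. The suffix f marks probes that can match related transcripts and i a set with fewer probes than the design asked for, so these values may hold signal of related transcripts or rest on fewer probes.

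Anxa6 and Anxa7 gave no call. Annexin A6, the annexin with a doubled core, helps to organise cholesterol and endosomal traffic, and its signal in probe set 94304_at was 879.6 and 937.9 in wild type against 875.3 and 734.5 in PEPCK-TAg. That is a change of -0.18 with an interval of -0.57 to 0.21 (limma, Benjamini-Hochberg adjusted p = 0.555). Annexin A7, or synexin, was described as a promoter of membrane fusion, and its probe set 93587_at measured 122.4 and 183.4 in wild type against 131.2 and 349.8 in PEPCK-TAg. The groups overlapped, because PEPCK-TAg replicate 1 fell among the wild-type arrays while replicate 2 stood above them, and the change of 0.49 had the widest interval of the tested members, -0.54 to 1.52 (limma, adjusted p = 0.530). Without PEPCK-TAg replicate 2 it was -0.18 and without PEPCK-TAg replicate 1 it was 1.15. The other probe set, 161533_at, lay below the filter with 28.0 and 27.5 against 32.6 and 23.0, again overlapping.

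**Figure D2:**
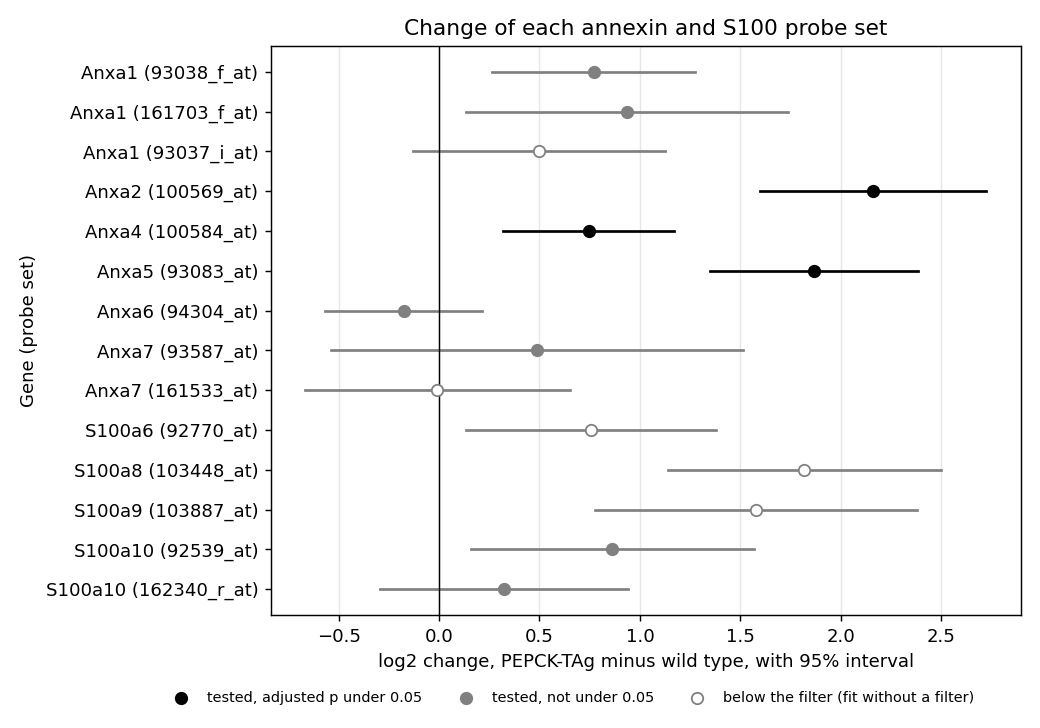
Log2 change of each probe set, PEPCK-TAg minus wild type, with its 95% interval from the limma fit on 2 against 2 arrays. Black marks adjusted p under 0.05, grey a tested probe set that missed it, and open circles probe sets below the filter, taken from a fit without a filter. The intervals of Anxa2 (1.60 to 2.73) and Anxa5 (1.35 to 2.39) lie above that of Anxa6 (-0.57 to 0.21).

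S100a8 and S100a9 encode the subunits of calprotectin and lie next to each other among the protein-coding genes of chromosome 3. S100a8 (probe set 103448_at) measured 20 and 16.6 in wild type against 105.2 and 89.9 in PEPCK-TAg, and S100a9 (103887_at) measured 12.6 and 26.3 against 78.0 and 85.8. Neither gene's groups overlapped, and the transgenic arrays of each were close together. All wild-type signals of both lay under the filter level of 48.1 with no detection call behind them, so no fold is given. Their mean over all arrays stood at the 39.1 and 37.5 percentile, just under the 40th percentile that the filter asked for, so neither was tested in the fit behind the other calls. In the fit without a filter over all 12422 probe sets, S100a8 changed by 1.82 ± 0.27 (SE) and passed (limma, Benjamini-Hochberg adjusted p = 0.0338), and S100a9 changed by 1.58 ± 0.32 and did not (adjusted p = 0.0659). The S100a8 call was lost whichever array was left out, with changes of 1.72 to 1.92 and limma adjusted p of 0.192 (wild-type replicate 1 left out), 0.155 (wild-type replicate 2), 0.131 (PEPCK-TAg replicate 1) and 0.111 (PEPCK-TAg replicate 2). Its size turned on the offset, at 1.11 with an offset of 20% of the trimmed mean and 2.35 with an offset of 1, as did that of S100a9 at 0.93 and 2.10, without a filter.

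S100a10, the partner of annexin A2, was higher on both PEPCK-TAg arrays but gave no call. Its probe set 92539_at measured 833.9 and 448.1 in wild type against 1008.7 and 1252.1 in PEPCK-TAg. The groups did not overlap, but the wild-type arrays differed by 0.88 on the log2 scale, as much as the change itself, 0.86 ± 0.29 (SE), with an interval of 0.16 to 1.57 (limma, Benjamini-Hochberg adjusted p = 0.125). Without wild-type replicate 1, the higher of the wild-type pair, the change was 1.30 and passed (limma, adjusted p = 0.0314), and without wild-type replicate 2 it was 0.43 and did not (limma, adjusted p = 0.27). Its second probe set, 162340_r_at, for which the suffix marks probes chosen under relaxed rules, measured 70.7 and 53.0 against 73.7 and 86.6, a change of 0.32 (limma, adjusted p = 0.487).

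S100a6 encodes calcyclin, an S100 protein of proliferating and fibroblast-like cells. It was dim on every array in probe set 92770_at, with 19.3 and 14.4 in wild type against 38.0 and 36.4 in PEPCK-TAg. The transgenic arrays were nearly equal and above both wild-type arrays, yet all 4 signals lay under the filter level of 48.1. Without a filter the change was 0.75 ± 0.25 (SE), with an interval of 0.13 to 1.38 (limma, Benjamini-Hochberg adjusted p = 0.183). The size turned on the offset here too, at 0.38 with an offset of 20% of the trimmed mean and 1.11 with an offset of 1.

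Other genes of the families did not pass. Of 19 further genes, annexins and S100 genes outside the 10 together with the S100-binding S100pbp, 13 were on the array under a single symbol, 6 passed the filter, and 0 were called by limma, with 2 at an unadjusted p under 0.05. Their median change was 0.021, and -0.12 with median centring. Those 2 pointed in opposite directions, Anxa3, a close relative of Anxa5, with 42.1 and 65.3 against 90.8 and 152.5, and S100a1, an S100 protein best known from muscle, with 443.4 and 431.7 against 326.3 and 280.3 (limma, Benjamini-Hochberg adjusted p = 0.108 and 0.112). S100a1 had 2 other probe sets below the filter, both higher on the PEPCK-TAg arrays, so its probe sets disagreed.

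Among 24 receptors and binding partners of annexins and S100 proteins, 14 were measured, 2 rose and 0 fell, with a median change of 0.20. That median was 0.055 with median centring. Over all tested probe sets 6.4% were called higher. Ahnak, a giant scaffold protein that docks on the annexin A2 and S100A10 complex, rose from 55.5 and 51.2 to 157.8 and 266.6, by 1.72 ± 0.28 (SE; limma, Benjamini-Hochberg adjusted p = 0.0151). Sri, which encodes sorcin, an EF-hand protein that binds annexin A7, rose from 215.4 and 172.1 to 323.8 and 399.2, by 0.86 ± 0.20 (limma, adjusted p = 0.0438), and lost its call on leaving out any 1 of the 4 arrays (limma adjusted p 0.0636 and 0.12 with wild-type replicate 1 or 2 left out, 0.0588 and 0.182 with PEPCK-TAg replicate 1 or 2). Ahnak kept its call in each of those 4 fits. On all 4 arrays Sri also lost its call with no filter (limma adjusted p 0.0803), quantile normalization (0.071) and median centring (0.0595). The same held with cyclic loess (0.0556) and no mean-variance trend (0.0705). Plg, the plasminogen that the annexin A2 complex binds, measured 15213 and 12566 in wild type against 12220 and 11074 in PEPCK-TAg and was not called (limma, adjusted p = 0.316).

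Of 36 other calcium-binding proteins, 24 were measured, 1 rose and 1 fell, with 22 not called and a median of 0.057, which was -0.088 with median centring. The shares over all tested probe sets were 6.4% higher and 3.07% lower. Rgn, which encodes regucalcin, a calcium-binding protein abundant in hepatocytes, fell from 7247 and 6824 to 3423 and 3546, by 1.01 ± 0.13 (SE) on the log2 scale (limma, Benjamini-Hochberg adjusted p = 0.00689). Gsn, the calcium-dependent actin-severing protein gelsolin, rose from 71.5 and 44.5 to 148.6 and 155.0, by 1.24 ± 0.26 (limma, adjusted p = 0.0314). Leaving out wild-type replicate 2 ended the Gsn call (limma, adjusted p = 0.0648), as did leaving out either PEPCK-TAg array (0.0844 and 0.0996) and the fit without a filter (0.0801).

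In whole-liver RNA more cells of a type and more RNA per cell cannot be told apart. Over all tested probe sets 6.4% were called higher and 3.07% lower, the rates to set beside each marker list that follows. Of 18 measured macrophage and Kupffer cell markers, 7 were called higher, and the summed signal of the 19 on the array was 5118 and 8856 in wild type against 15603 and 21144 in PEPCK-TAg. Within each group Anxa2, Anxa5 and S100a9 were higher on the array with the higher sum, replicate 2, and S100a8 was lower on it. The bile duct and endothelial sums were also higher on replicate 2 in both groups, and the hepatocyte and dividing-cell sums were lower on it. With 2 arrays in each group this order singles out no cell type. Of the other members, by the probe set with the highest mean, Anxa1 and Anxa7 were higher on replicate 2 in both groups. S100a6 was lower on it in both groups, Anxa4 and Anxa6 in PEPCK-TAg only, and S100a10 in wild type only. The count of 7 was 4 on leaving out wild-type replicate 1 or PEPCK-TAg replicate 2, 11 on leaving out wild-type replicate 2, 3 with no filter and 4 with no mean-variance trend. With the replicate number as a block, 13 macrophage markers were called higher. All 14 measured markers of dividing cells were called higher, with sums of 1516 and 1351 against 11955 and 9129 over the 16 on the array. Cdk1, Birc5, Aurka, Mki67 and Top2a had wild-type means under the filter level of 48.1 and passed only through their PEPCK-TAg arrays. Without regard to the filter, all 16 lay apart higher. The part of macrophage and dividing-cell signal in the annexin and S100 values was not tested.

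Neutrophil markers were mostly dim, and those that passed the filter were mostly higher in PEPCK-TAg. Of 18 in the list 16 were on the array and 5 were measured. Those 5 had a median change of 1.28, with 4 above 0 and 3 at an unadjusted p under 0.05 by limma. Without a filter the median of the 16 was 0.19. Among the 5, Lcn2 and Itgb2 had wild-type means of 24.05 and 43.85, under the filter level of 48.1. They passed only through their PEPCK-TAg arrays, so the median of 1.28 and the count of 4 partly follow from the filter. Of the 16, 7 lay apart higher and 1 apart lower, where 26.5% of all 12422 non-control probe sets lay apart higher. A single marker, Lcn2, was called higher, a gene that hepatocytes also express in the acute phase; a second Lcn2 probe set overlapped between groups, with 140.5 and 105.1 against 132.5 and 119.8. Leaving out wild-type replicate 1 or PEPCK-TAg replicate 1 gave 2 calls higher. The summed signal was 738 and 669.9 in wild type against 1603 and 1945 in PEPCK-TAg, and 709 and 650.8 against 914.7 and 1065 without Lcn2. Of the 16, 9 stayed under the filter level on all 4 arrays, between 2.7 and 46.0, and none was listed at 0. Ngp, a neutrophil granule gene, measured 15.2 and 13.8 against 17.2 and 21.9, and Cxcr2, the chemokine receptor of neutrophils, 22.0 and 16.6 against 19.0 and 26.2. Camp, another granule gene, measured 94.6 and 39.4 against 177.4 and 160.7 and was not called (limma, Benjamini-Hochberg adjusted p = 0.0709). Itgb2, a leukocyte integrin subunit named after its values were seen, measured 29.3 and 58.4 against 89.8 and 266.9, a change of 1.63 (limma, adjusted p = 0.0955). The part of neutrophil signal in the S100a8 and S100a9 values was not tested.

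**Figure D3:**
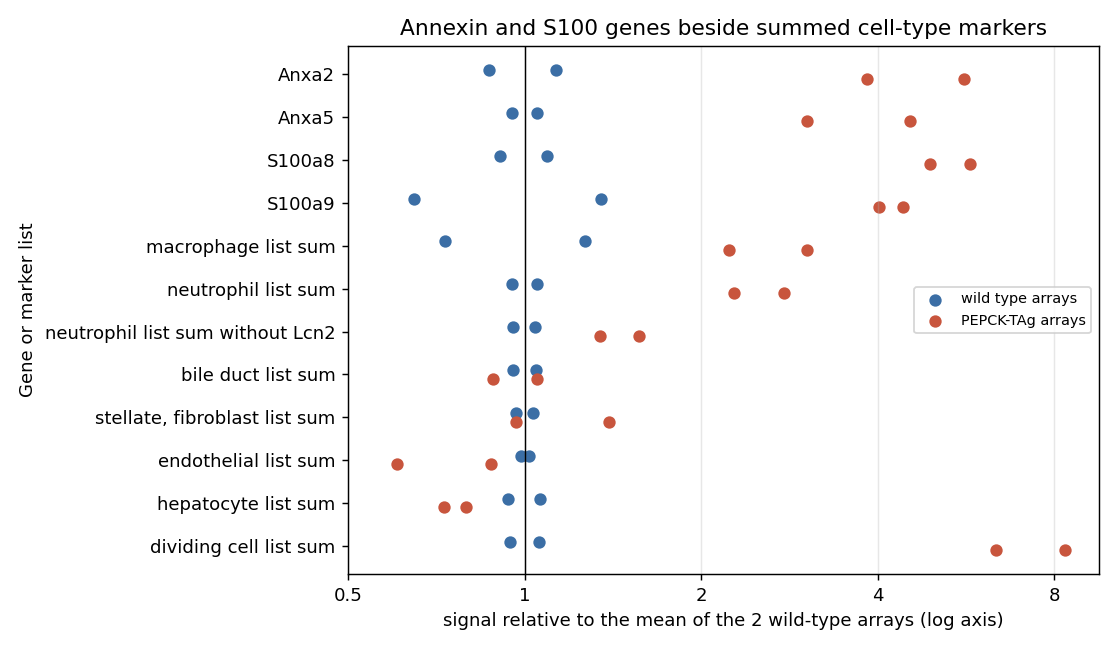
Signal of 4 member genes and summed signal of cell-type marker lists on each array, divided by the mean of the 2 wild-type arrays (log axis), with blue points for wild type and red for PEPCK-TAg. Anxa2 reached 3.84 and 5.62 and Anxa5 3.03 and 4.53 times the wild-type mean on the PEPCK-TAg arrays. Macrophage markers reached 2.23 and 3.03, and markers of dividing cells 8.34 and 6.37. Neutrophil markers reached 2.28 and 2.76, or 1.35 and 1.57 without Lcn2. The points of S100a8 and S100a9 are divided by wild-type signals under the filter level, so their distance from 1 is not a measured fold.

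Bile duct markers, set beside Anxa4, gave 0 calls among 2 measured of 7 on the array. Of those measured, 0 were at an unadjusted p under 0.05 by limma. The summed signals of the 7 overlapped, at 223.7 and 245.1 in wild type against 207.3 and 246.0 in PEPCK-TAg. Of the 7, 4 stayed under the filter level on all 4 arrays, between 2.8 and 15.9, and 2 lay apart higher and 3 apart lower. Of the defining duct keratins, Krt7 stayed at 8 to 15.9 and Krt19, in the probe set with the higher mean, at 2.8 to 5. The part of bile duct signal in the Anxa4 values was not tested. The stellate cell and fibroblast sum also overlapped, at 3914 and 3673 against 3673 and 5290. Of the 13 genes of that list on the array, 9 lay apart higher and 0 apart lower, where 26.5% of all 12422 non-control probe sets lay apart higher. Of the list's 9 measured genes 7 were above 0 and 1 was called higher. That call was lost with no filter, and on leaving out either wild-type array or PEPCK-TAg replicate 2. Hepatocyte markers were all below 0 in change, with 7 of 13 at an unadjusted p under 0.05 by limma and 1 called lower. That count was 3 on leaving out wild-type replicate 2, 0 on leaving out any other array, 0 with no filter, quantile normalization or no mean-variance trend, 2 with the 20% offset, 3 with the filter at the 60th percentile and 4 with median centring. Their sum was lower on both transgenic arrays, 116172 and 102240 against 86664 and 79567. The size of the hepatocyte change turned on the normalization. The list median was -0.38 as reported, -0.13 with quantile normalization, -0.14 with cyclic loess and -0.52 with median centring. Endothelial markers gave 0 calls among 9, with 3 at an unadjusted p under 0.05 by limma, and sums of 2942 and 3034 against 1812 and 2622. Lymphocyte markers gave 0 calls among 5, with 2 at an unadjusted p under 0.05 by limma, and red blood cell markers 1 higher call among 5.

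The genes nearest in pattern were found by the Euclidean distance of the 4 log2 values, each less its own wild-type mean, over all tested probe sets with 1 symbol. Nearest to Anxa2 were Wee1 (distance 0.285), a kinase that restrains entry into mitosis, and Brca2 (0.309), a DNA repair gene. Nearest to Anxa5 were Ms4a6c (0.138) and Evi2a (0.170), and nearest to Anxa4 were Zfp472 (0.0557) and 1810009A15Rik (0.0744). Wild-type signals were 22.8 and 41.7 for Wee1, 35.4 and 52.7 for Brca2, 16.5 and 23.8 for Ms4a6c, and 22.9 and 28.9 for Evi2a. Each of these genes averaged under the filter level of 48.1 in wild type and passed only through its PEPCK-TAg arrays. The offset of 13 understates the change of such dim genes, so their distances to the brighter Anxa2 and Anxa5 depend on it. Both neighbours of Anxa4 lay above that level on every array. With 4 arrays in 2 groups these distances describe these arrays only.

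At the offset of 13, taking for each gene its probe set with the highest mean, the order of change ran from Anxa2 through Anxa5, S100a8 and S100a9 to S100a10, Anxa1, S100a6 and Anxa4, then Anxa7, with Anxa6 below 0. The intervals of Anxa2, Anxa5, S100a8 and S100a9 overlapped each other, as did those of Anxa1, S100a10, S100a6, Anxa4 and Anxa7. Those of S100a6, S100a8 and S100a9 came from the fit without a filter. Differences between genes were not tested, so the order ranks the estimates only. The order moved with the offset: at an offset of 1 S100a8 (2.35) stood above Anxa2 (2.22) and S100a9 (2.10) above Anxa5 (1.89), and at 20% of the trimmed mean S100a6 (0.38) stood below Anxa7 (0.42) and Anxa4 (0.71) above Anxa1 (0.59). The plot of settings gives the spread of each change over the alternatives.

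**Figure D4:**
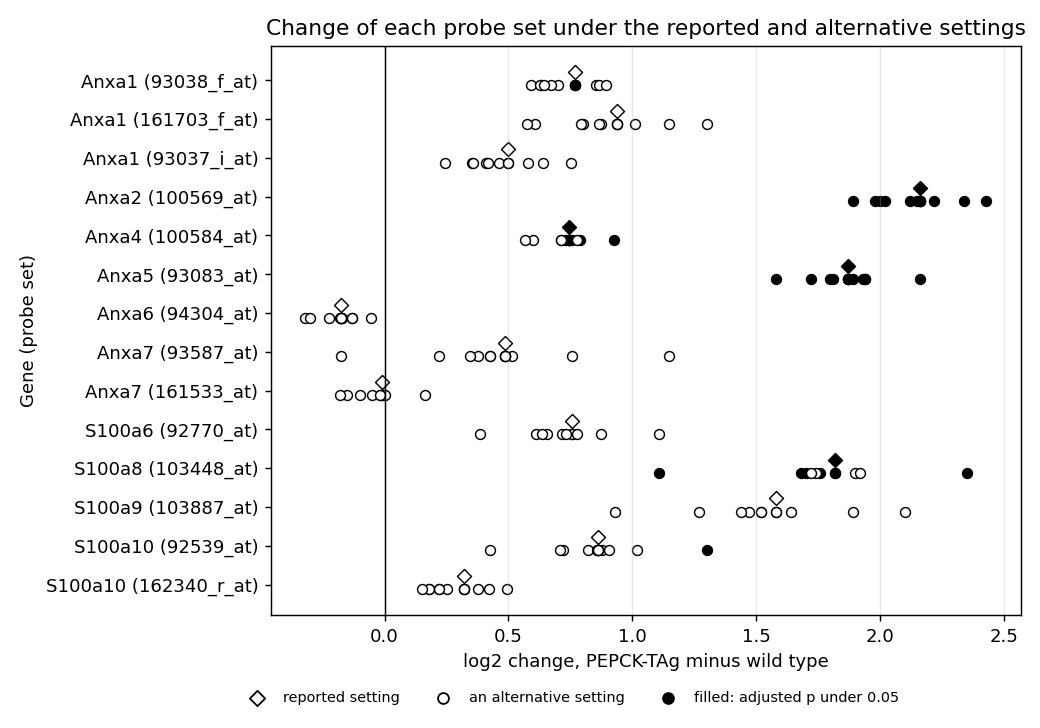
Log2 change of each probe set, PEPCK-TAg minus wild type, in the reported setting (diamonds) and in each alternative (circles), filled where the adjusted p was under 0.05. Anxa2 and Anxa5 are filled throughout, Anxa4 and S100a8 are filled in part, and S100a10 92539_at and Anxa1 93038_f_at are filled in 1 alternative each.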

How the data were processed

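The authors deposited 1 MAS5 signal intensity per probe set and array on a linear scale, per the submitters' processing notes. Software version, scaling target and detection calls: not given in the sources used here. Experiment files hold instrument records only and were not used. Groups and replicate numbers came from the sample titles. Of 12488 probe sets, 66 controls were left out; of 12422, 10833 had 1 gene symbol in the platform annotation, 396 had several and 1193 none. An offset of 13, which is 5% of the trimmed mean, was added before log2, and probe sets at or above the 40th percentile of mean log2 (signal near 48.1) were tested with limma 3.58.1 in R 4.3.3 (lmFit, eBayes with a mean-variance trend), two-sided, with Benjamini-Hochberg adjustment over all 7453 (degrees of freedom: 2 residual, 4.61 prior). With 2 against 2 arrays an exact permutation test cannot go below 0.333, so none was run, and precision is limited by the number of arrays. No 2 arrays shared a fluidics module or a scan time, so neither could be modelled as a batch. A gene stood in a list by its brightest tested probe set. Named were every member probe set, list members past the threshold or defining a list, and the 2 nearest patterns of each called member; Anxa3, S100a1, Plg, Camp, Itgb2, Ngp and Cxcr2 were named from the lists although not called. Members and lists were chosen with earlier results of these data known. The procedure was tested on simulated data. Promoter sequences are RefSeq's, build GRCm38.p6; no build belongs to the array values. Alternatives covered the offset, the filter, the normalization, the trend, the replicate block and leaving out each array; for probe sets below the filter they were combined with no filter, a choice made after seeing the data.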

Additional observations from a re-analysis of the deposited data

How the results depend on the processing

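Across the alternatives, 169 changes of single member probe sets were recomputed: 152 kept direction and side of the threshold, 12 lost a call (8 for Anxa4, 4 for S100a8), 2 gained one and 3 reversed, all 3 for Anxa7. The count of higher member probe sets was 3 as reported, 2 to 3 when 1 array was left out and 2 to 4 in all alternatives, and that of lower ones was 0 throughout. Anxa7 93587_at ranged from -0.18 to 1.15 with 1 array left out, and Anxa7 161533_at, without a filter, from -0.18 to 0.16, with 0.00059 without wild-type replicate 1; the cause was not tested. With the replicate number as a block the count of higher member probe sets was 4, Anxa1 93038_f_at being added (limma, Benjamini-Hochberg adjusted p = 0.047), and over all probe sets 696 were higher and 444 lower, with 13 macrophage and 3 neutrophil markers higher and 7 hepatocyte markers lower; same-numbered arrays shared only a number, with a correlation of deviations of 0.181 over 2 pairs. The counts over all probe sets also moved without a filter (337 higher, 105 lower), with median centring (409 lower), without the mean-variance trend (117 lower) and when 1 array was left out (294 to 401 higher, 94 to 147 lower). The median change of the tested members was 1.02 without PEPCK-TAg replicate 1. Anxa4 lost its call with an offset of 1 (adjusted p 0.0503), no filter (0.0737), quantile normalization (0.0533), median centring (0.0979) and no trend (0.0865). The number of arrays, 4, limits all of these values, and signals under 48.1 have no detection call behind them.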
